A study of Mus musculus with 2 samples.

Results

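The cells described here are the fibroblasts of the neonatal mouse heart that carry transcripts of Pi16, Clec3b, Mfap5 and Sema3c, a combination known from adventitial-type fibroblasts. They were chosen with a gate on unique molecular identifiers (UMIs, which count captured transcripts). A cell entered the gate with at least 10 UMIs of Col1a1 plus Col3a1 and none of Pecam1 or Ptprc. It was then called a member if at least 2 of the 4 genes were detected and if more of them were detected than of any of 3 other sets of 4 genes, namely Col26a1, Dpep1, Tenm4 and Slc38a5 (set A), Gdf10, Wisp1, Rbp4 and Gfra2 (set C), and Fmod, Prss35, Wif1 and Scx (set D). The gate found 2104 members among 13502 cells of both ages, 269 of 4991 at postnatal day (P) 1 and 1835 of 8511 at P7. Because the 4 genes chose the cells, their levels in the members are a description of the choice. The members are defined by counts of gate genes, and whether they form a discrete group was not tested.

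Adventitial fibroblasts lie in the outer sheath of vessels and in the fibrous tissue around organs. They express CD34 and, in many mouse tissues, Ly6a and Dpp4, and Pi16-positive fibroblasts have been described in many organs. Pi16 encodes a peptidase inhibitor held at the cell surface, Clec3b the plasminogen-binding protein tetranectin, Mfap5 a component of microfibrils, and Sema3c a secreted guidance cue.

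Hearts of mice at P1 and at P7 were compared, ages on either side of the loss of regenerative capacity in this species. Each age was represented by 1 library made from 3 hearts of 1 litter, digested with Collagenase II for 20 min at P1 and for 45 min at P7, treated to lyse red blood cells and sorted for live cells. No genotype, strain or treatment was given for either group in the labels. The libraries held 63585504 UMIs in 7836 barcodes at P1 and 98346195 UMIs in 9077 barcodes at P7, of which 18 barcode sequences occurred in both libraries and none of these among members. With 1 library per age there is no replicate spread, no test was made, and every interval below is a 95% interval that covers counting error only. Age, litter, digestion time and sex cannot be told apart: members at P1 contained Xist, the transcript of the inactive X chromosome, at 809 CPM (UMIs of the gene in each 1e6 UMIs summed over the cells) and no UMI of the Y-linked Ddx3y, whereas members at P7 had 3 UMIs of Xist and 79.0 CPM of Ddx3y.

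Members made up 14.5% of the 1858 collagen-gated cells at P1 (exact Clopper-Pearson interval 12.9 to 16.2%) and 61.0% of the 3006 at P7 (59.3 to 62.8%), a ratio of 4.22. With all 4 genes required the shares were 4.63 and 41.2%. With Clec3b, Mfap5 or Sema3c left out of the gate they were 7.32 and 46.6%, 5.81 and 44.1%, and 9.04 and 50.6%. With the gate as defined, members were 5.39% and 21.6% of all cells kept. The shares of sets A and D went the other way, from 34.2% at P1 to 10.4% at P7 and from 16.04% to 3.76% of collagen-gated cells, while set C held 4.09% and 2.63%. A class took a cell only if more of its genes were detected than of each other set, so the shares are not independent. Cells that met no set made up 31.2% and 22.2%. The members of both ages were sequenced to similar depth, the median cell holding 16944 UMIs and 4374 genes at P1 and 16821 UMIs and 4361 genes at P7. When every cell was first thinned to 3000 UMIs and gated again, which dropped 803 shallower P1 cells and 1045 P7 cells, the shares were 16.9% and 62.2%.

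**Figure D1:**
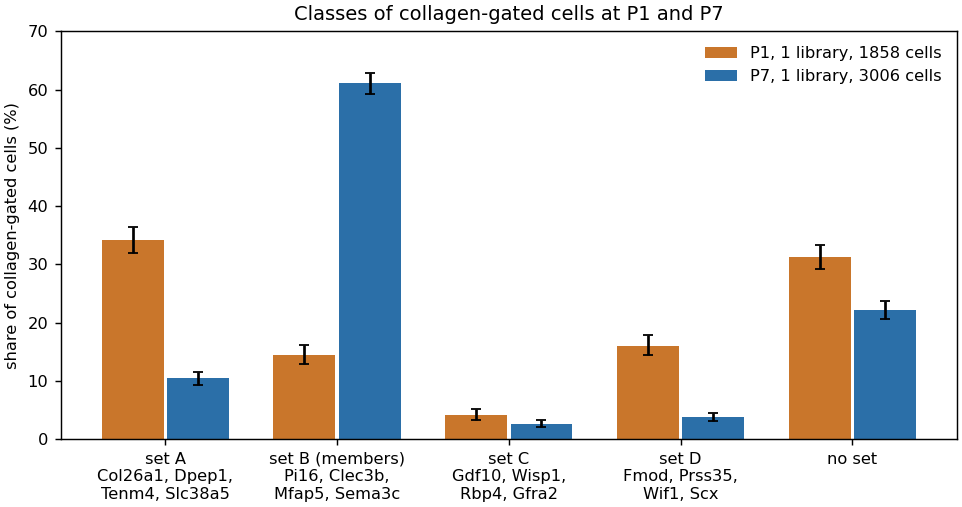
Share of collagen-gated cells (%) in each class, for the P1 library (orange, 1858 cells) and the P7 library (blue, 3006 cells); bars are the measured share and error bars exact 95% binomial intervals, which cover counting error only. Members, which detect at least 2 of Pi16, Clec3b, Mfap5 and Sema3c and more of them than of any other set, stand at 14.5% at P1 and 61.0% at P7. The classes of set A and set D are smaller at P7, and the shares of the classes are not independent.

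Detection of the gate genes over all collagen-gated cells is what the gate works on, and is given as a description that lends the shares above no support. A UMI of Pi16 was found in 17.0% of these cells at P1 and 59.3% at P7, of Clec3b in 37.6% and 71.1%, of Mfap5 in 57.4% and 86.5%, and of Sema3c in 27.2% and 61.6%. Within the members, all 4 genes were detected in 86 of 269 cells at P1 (32.0%) and in 1237 of 1835 at P7 (67.4%), 3 genes in 118 and 437 cells, and 2 genes in 65 and 161 cells. At the edge of the gate stood 159 members at P1 and 495 at P7 that led the next set by 1 gene. Just outside it were 518 and 562 collagen-gated cells with at least 2 of the 4 genes, 232 and 323 of them tied with another set, and 572 and 388 cells with 1 gene. Pi16 stood at 19.8 CPM in the P1 members with 2 gate genes against 29.2 CPM in non-members with the same number, and at 32.8 against 72.0 CPM at P7. Members with 2 gate genes thus had less Pi16 than non-members with the same number. With 3 gate genes members had more, at 103 against 34.0 CPM at P1 and 144 against 112 CPM at P7. With 4 they had 201 against 83.5 CPM and 721 against 410 CPM.

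Each gate gene was also measured in members chosen without it, from the other 3 genes of its set. Pi16 was then at 115 CPM in 194 members at P1 and 613 CPM in 1531 members at P7, against 29.0 and 133 CPM in the remaining collagen-gated cells. Clec3b stood at 494 and 1203 CPM against 149 and 297 CPM outside, and Sema3c at 129 and 394 CPM against 38.5 and 104 CPM. Mfap5 reached 2586 and 4334 CPM against 562 and 1093 CPM. Every one of the 4 genes was therefore higher inside than outside at both ages, and higher at P7 than at P1 inside, with log2 ratios of P1 to P7 of -2.41 for Pi16, -1.61 for Sema3c, -1.28 for Clec3b and -0.74 for Mfap5. The share of leukocytes with a UMI is given as a measure of free RNA for Clec3b, Mfap5 and Sema3c. Members are here again those of the full gate. Because these genes chose them, a share above that of leukocytes describes the choice and is no check of it. Leukocytes had a median of 7589 UMIs at P1 and 6387 at P7. After thinning of each cell to 3000 UMIs, Clec3b was detected in 54.1% of members and 0.889% of leukocytes at P1, and in 78.1% and 2.70% at P7. Pi16 was found in 24.8% of members and 20.0% of leukocytes at P1 and in 54.1% and 9.65% at P7. Leukocytes at P1 held 69.4 CPM of Pi16 against 39.0 CPM over all collagen-gated cells, and 1.87 CPM of Clec3b against 179 CPM, so that the Pi16 share in leukocytes is not used as a background. Mfap5 was found in 2.67% and 7.72% of leukocytes. Before thinning, 97.4% and 99.2% of members had a UMI of Mfap5. Sema3c was found in 0 of 225 leukocytes at P1, which allows a share of up to 1.33%, and in 1.16% at P7, against 30.8% and 50.1% of members.

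The label was set beside genes that the gate did not use. Since Efhd1 and the adventitial list were themselves chosen with earlier results of these data known, their levels in members describe the cells and are no independent check of the label. Efhd1, which encodes a calcium-binding protein of mitochondria and was listed as the fifth marker of these cells, stood at 18.2 CPM (P1) and 89.0 CPM (P7) in members and at 1.45 and 4.13 CPM in the other collagen-gated cells, 12.4-fold and 21.4-fold higher in members. After thinning it was detected in 4.89% and 17.1% of members, in 0 of 225 leukocytes at P1, which allows up to 1.33%, and in 0.772% at P7. As a description with no test, of 27 measured adventitial stroma genes, 11 were at least 2-fold higher in members in both libraries and 1, Procr, was lower, with a median log2 ratio of 0.82 at P1 and 1.52 at P7. Over all 12807 genes tested, 145 (1.13%) were higher and 209 (1.63%) lower, with a median of -0.05 in each library. Against other collagen-gated cells with at most 1 marker of each other cell type, 154 genes were higher and 59 lower. Thinning to 3000 UMIs gave 79 higher and 74 lower when done before the gate and 91 and 73 when done after it, members without 2 markers of another cell type gave 89 and 105, and 5 counts added in place of 0.5 gave 141 and 137. Cd55, a regulator of complement, stood at 71.5 CPM (P1) and 206 CPM (P7) in members against 16.6 and 26.9 CPM outside. Dpp4, a cell surface peptidase, was at 17.8 CPM (P1) and 45.2 CPM (P7) against 5.82 and 5.33 CPM. The stem cell antigen gene Ly6a was at 18.2 CPM (P1) and 51.0 CPM (P7) against 2.51 and 2.94 CPM, and most members had no UMI of it, with detection in 9.29% and 21.3% of members at full depth, and in 3.38% and 8.93% of members after thinning. In 4.0% and 3.47% of leukocytes, which in part express Ly6a themselves, it was found as well, so that its share in P1 members was no higher than there. The scavenging chemokine receptor gene Ackr3 stood at 98.5 CPM (P1) and 246 CPM (P7) against 16.7 and 30.7 CPM, and the elastin-binding gene Emilin2 at 47.3 CPM (P1) and 101 CPM (P7) against 6.88 and 10.6 CPM. Anxa3, Cd248, Gfpt2, Has1 and Igfbp6 were the other 5 of the 11. Without the cells of other lineages described below, P1 members had 78.0 CPM of Igfbp6 against 41.6 CPM outside and 9.17 CPM of Dpp4 against 5.82 CPM, both under 2-fold. Such cells were left out of the members only and not of the cells outside. Whether these 2 genes pass at P1 with both sides filtered was not tested.

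Markers of interstitial cardiac fibroblasts were read in members and in other collagen-gated cells. None of 19 measured genes of that list was at least 2-fold higher or lower in both libraries, a count near the shares of 1.13% higher and 1.63% lower over all genes, with median log2 ratios of -0.02 and 0.13. Tcf21, the transcription factor of cardiac fibroblast progenitors, stood at 646 CPM (P1) and 911 CPM (P7) in members and 653 and 689 CPM outside. Pdgfra, the receptor that marks cardiac fibroblasts, was at 162 CPM (P1) and 199.5 CPM (P7) in members against 152 and 145 CPM. At P7 the gate took in the majority of the collagen-gated cells.

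**Figure D2:**
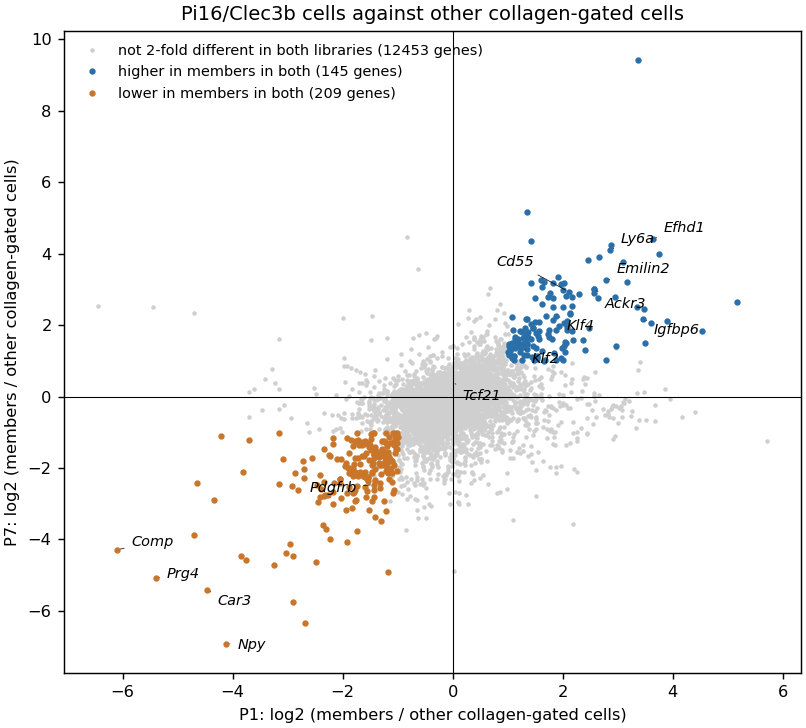
Each point is 1 of 12807 genes, with the log2 ratio of members over other collagen-gated cells at P1 on the horizontal axis and at P7 on the vertical axis; 145 genes (blue) were at least 2-fold higher and 209 (orange) at least 2-fold lower in members in both libraries. Gate genes are not drawn, Efhd1, Ly6a and Emilin2 lie at the upper right and Tcf21 near the centre, and the place of a gene with no UMI in 1 group, such as Comp, depends on the 0.5 counts added to each sum.

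Klf4 and Klf2, which encode zinc finger transcription factors, were also at least 2-fold higher in members in both libraries. Klf4 was at 428 CPM (P1) and 546 CPM (P7) in members against 116 and 113 CPM, and Klf2 at 792 CPM (P1) and 1539.6 CPM (P7) against 334 and 603 CPM. The scavenger of inflammatory chemokines Ackr2 had 52 UMIs at P1 and 635 at P7 in members, against 24 and 0 outside. Tnfrsf11b, the decoy receptor osteoprotegerin, stood at 26.5 CPM (P1) and 82.4 CPM (P7) against 4.45 and 10.1 CPM, and the growth factor gene Fgf18 at 27.2 CPM (P1) and 34.5 CPM (P7) against 10.1 and 8.45 CPM. The neurotrophic receptor gene Ret was at 11.0 CPM (P1) and 23.4 CPM (P7) against 2.64 and 3.30 CPM. Lrrn4cl and 1700019D03Rik, whose roles are little known, were at 24.4 and 39.3 CPM against 3.83 and 2.58 CPM and at 14.9 and 61.0 CPM against 1.72 and 4.43 CPM. Anxa8 and Clic3, though also in the ranking, were at 26.1 and 25.3 CPM in all P1 members and at 2.29 and 0 CPM without the cells of other lineages described below. The matrix genes Fbln2 and Adamts5 were also higher in members, at 809 and 839 CPM against 369 and 262 CPM for the former and 387 and 537 CPM against 155 and 176 CPM for the latter. Genes lower in members included Prg4, which encodes the joint lubricant lubricin (0.637 CPM (P1) and 1.35 CPM (P7) against 31.3 and 46.0 CPM), Car3 (6.58 and 3.76 against 148 and 163 CPM) and the neuropeptide gene Npy (1.70 and 0.579 against 31.2 and 71.8 CPM). Of 10 mural markers, 8 were lower in members, among them Rgs5 (72.2 and 57.9 against 239.6 and 788 CPM). The other collagen-gated cells held mural markers at a sum of 2305 and 2947 CPM, against 827 and 563 CPM in members, and the mural difference is one between these groups of cells, not a trait shown for the members alone. The growth factor Igf1 was lower as well, at 85.9 CPM (P1) and 62.2 CPM (P7) against 233 and 189 CPM.

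Genes outside the gate varied with the number of gate genes detected in a member. Efhd1 stood at 2.33, 13.1 and 31.0 CPM in P1 members with 2, 3 and 4 gate genes and at 2.22, 17.2 and 116 CPM in P7 members. Cd55 went from 19.8 to 112 CPM between 2 and 4 gate genes at P1 and from 36.1 to 255 CPM at P7, Emilin2 from 26.8 to 66.3 and from 15.6 to 127 CPM, and Ly6a from 5.83 to 33.7 and from 1.67 to 67.9 CPM. Dpp4 ran the other way at P1, at 25.7, 19.1 and 12.8 CPM with 2, 3 and 4 gate genes. At P7 it stood at 32.3, 17.0 and 54.3 CPM, lowest at the middle step. Tcf21 varied less, between 586 and 702 CPM at P1 and between 735 and 942 CPM at P7. Members with more gate genes had more UMIs per cell, with medians of 11979 and 20843 at P1 and 11245 and 18058 at P7 for 2 and 4 genes, and the part of depth in sorting cells between these steps was not tested.

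**Figure D3:**
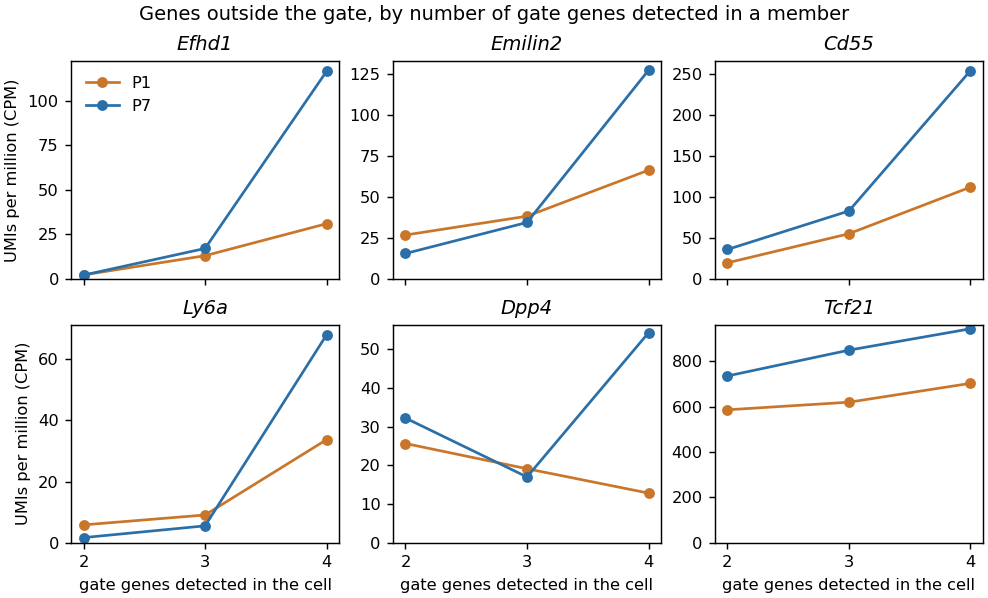
Summed level (CPM) of 6 genes that the gate did not use, in members with 2, 3 or 4 gate genes detected, at P1 (orange) and P7 (blue); each point pools the UMIs of 65 to 1237 cells of 1 library. Efhd1, Emilin2, Cd55 and Ly6a are highest in members with all 4 gate genes at both ages and highest of all at P7, Dpp4 is lowest at P1 and highest at P7 in that step, and Tcf21 changes little.

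The gate also admitted cells with markers of other lineages. At P1, 63 of 269 members had at least 50% of the markers of 1 other cell type, or at least 20 UMIs of haemoglobin or of neutrophil S100 transcripts, 28 of them epicardial, 17 mural, 15 cardiomyocyte, 3 endothelial and 1 each glial, leukocyte and neutrophil, with some cells counted under more than 1 heading. At P7 there were 145 of 1835, with 72 cardiomyocyte, 48 mural, 12 epicardial and 12 endothelial. The 28 members with at least 3 of 7 epicardial markers made up 10.4% of members at P1 (7.03 to 14.7%), against 12 cells or 0.654% at P7 (0.338 to 1.14%). The 7 were Upk3b, Upk1b, Bnc1, Dmkn, Msln, Krt19 and Lrrn4. These cells held 987 of the 988 UMIs of Upk3b in P1 members (99.9%) and 99.5% of those of Msln, which follows from the choice. Of genes outside the 7, they held 97.8% of the UMIs of the complement gene C3 and 65.3% of those of Wt1. All 10 epicardial markers were higher in P1 members, summing to 943 CPM with Msln the most abundant, against 44.4 CPM at P7 with Upk3b the most abundant, and none was at 0. Without the cells of other lineages, 206 members at P1 and 1690 at P7, the sums were 24.9 and 3.01 CPM and 1 of the 10, Wt1, still had enough UMIs to be compared and was higher at P1. Because the same markers chose the cells left out, this fall is part of the choice. Of all genes tested, 6.64% were higher at P1 in all members and 3.58% without the cells of other lineages. Since these cells move with the age, the counts between the ages are given for all members and for members without them.

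The markers of other lineages were summed in the same way. Their counts stand beside shares over all genes of 6.64% higher at P1 and 2.86% higher at P7 in all members. Without the cells of other lineages these shares were 3.58% and 2.89%. Cardiomyocyte markers summed to 367 CPM in P1 members, with Tnnt2 the most abundant, and 144 CPM at P7, with Myl2. Of the cardiomyocyte markers, 6 of 12 were higher at P1 and none was at 0. Leaving out the cells of other lineages, they summed to 134 and 91.2 CPM, with 2 of 11 higher at P1. Leukocyte markers summed to 143 and 18.9 CPM, with 6 of 9 higher at P1, but 429 of the 467 UMIs of S100a8, the most abundant, lay in a single cell, and 2 of the 10 genes were at 0 at P1. The sums were 23.5 and 16.9 CPM without the cells of other lineages, with 1 of 8 higher at each age. Mural markers summed to 827 and 563 CPM with Acta2 the most abundant (379 and 350.3 CPM without the cells of other lineages), and endothelial markers to 277 and 174 CPM with Fabp4 (254 and 165 CPM). Glial markers summed to 34.6 and 16.01 CPM, 6 of 8 higher at P1, and 2 of 10 were at 0 at P1, and to 8.03 and 7.29 CPM with 1 of 4 higher without those cells. Erythroid genes ran the other way, at 14.2 and 256 CPM (12.9 and 38.4 CPM without those cells), and 2 cells held 83.4% of the Hbb-bs UMIs at P7. Their part in the values for all members was not tested beyond leaving those cells out.

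Between the ages, 880 of 13245 genes tested (6.64%) were at least 2-fold higher in P1 members and 379 (2.86%) at least 2-fold higher in P7 members, and the median log2 ratio, here and below taken as P1 over P7, was 0.00. Without the cells of other lineages, 12858 genes could be tested, of which 460 (3.58%) were higher at P1 and 371 (2.89%) at P7. In the other collagen-gated cells 597 of 13870 (4.3%) were higher at P1 and 439 (3.17%) at P7. The count of genes higher at P1 thus went from 880 to 460 without the cells of other lineages, and that of genes higher at P7 from 379 to 371. The counts were 399 higher at P1 and 285 higher at P7 with every cell thinned to 3000 UMIs before the gate, 465 and 256 with members thinned after it, 471 at P1 with all 4 gate genes required, 575 at P1 without the epicardial-marker cells, and 956 and 181 with 5 counts added to each sum in place of 0.5. Leaving out all members with 2 markers of another cell type, which kept 2.05% and 11.7% of collagen-gated cells, turned the excess round, with 256 genes higher at P1 and 313 at P7. These shares of all genes are the background against which the counts of each list below stand.

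Many of the adventitial stroma genes were higher at P7. Of 28 tested in members, 13 were at least 2-fold higher at P7 and 3 at P1, and the median log2 ratio (P1 over P7) was -0.91, against 0.00 for all genes. Without the cells of other lineages the counts were 10 and 2 and the median -0.81. In the other collagen-gated cells 2 of 28 were higher at P7 and 4 at P1, with a median of -0.20, and the difference between the groups of cells was not tested. Of 19 interstitial fibroblast markers, 1 was higher at each age, and 1 at P1 and none at P7 without those cells. The adventitial list was chosen with earlier results of these data known, and its direction is no independent evidence. All 4 gate genes were detected in 32.0% of members at P1 and 67.4% at P7, and the ratios pool all members. With 3 gate genes, Ly6a was at 9.07 CPM (P1) and 5.52 CPM (P7), Emilin2 at 38.3 and 34.5 and Dpp4 at 19.1 and 17.0. Efhd1 was at 13.1 and 17.2 CPM and Cd55 at 55.4 and 83.2 CPM there. With 4, each of these genes was higher at P7. The part of this mix in the ratios was not tested. Over all members, Efhd1 was 4.85-fold higher at P7 (log2 ratio -2.28, interval -2.61 to -1.98). Cd55 was 2.88-fold and Ackr3 2.50-fold higher, while in the other collagen-gated cells they differed 1.62-fold and 1.84-fold. Dpp4 was 2.52-fold higher at P7 in all members and 4.77-fold higher without the cells of other lineages, with 5.82 and 5.33 CPM in the other collagen-gated cells. Pcolce2, an enhancer of procollagen processing, was at 33.7 CPM (P1) and 113 CPM (P7), and Lsp1, an actin-binding protein, at 277 CPM (P1) and 844 CPM (P7). Cd34 stood at 774 CPM (P1) and 1432 CPM (P7), Cd248 at 112 CPM (P1) and 209 CPM (P7) and Dpt, which encodes dermatopontin, at 594 CPM (P1) and 1269 CPM (P7). Of 10 Ly6 surface protein genes tested, 3 were higher at P7 and 1 at P1 (3 and none of 8 without those cells), and Ly6a was 2.78-fold and Ly6c1 2.75-fold higher at P7.

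The 3 adventitial genes higher at P1 were Has1, Igfbp6 and Smpd3. Has1, a hyaluronan synthase, was at 25.7 CPM (P1) and 2.73 CPM (P7), and at 16.1 and 2.76 CPM without the cells of other lineages. Igfbp6, which encodes a binding protein of insulin-like growth factors, was at 456 CPM (P1) and 98.0 CPM (P7) in all members but at 78.0 and 89.4 CPM without those cells, so that its log2 ratio of 2.22 turned to -0.20. The Igfbp6 difference in all members thus came with the epicardial-marker cells of the P1 library.

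**Figure D4:**
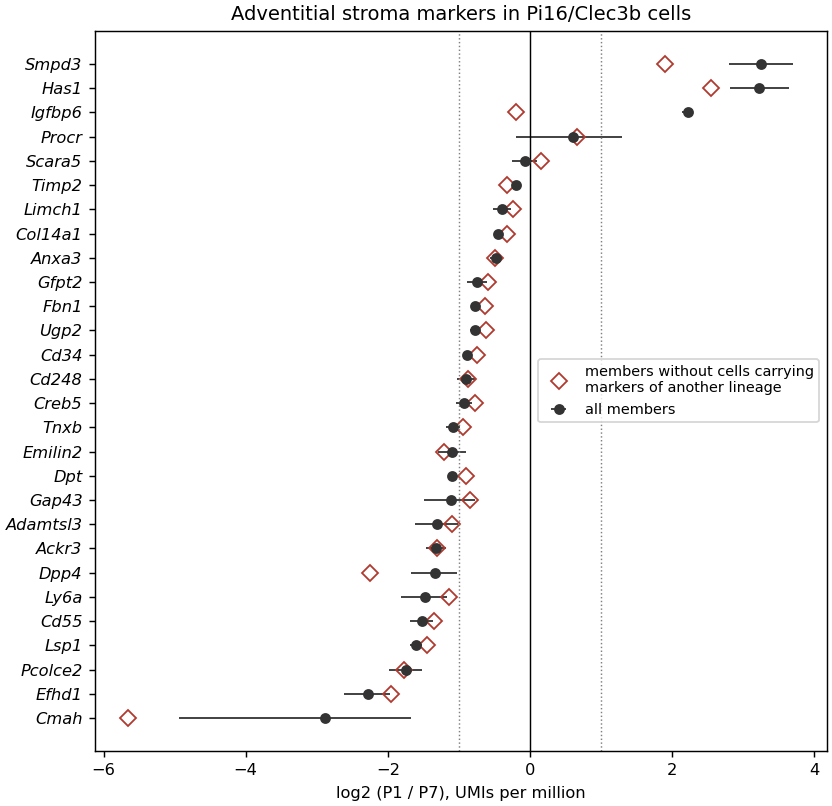
Log2 ratio of P1 over P7 (summed CPM) for 28 adventitial stroma genes in members; black points with bars are all 269 and 1835 members with 95% counting intervals, red diamonds the 206 and 1690 members without markers of another lineage, and dotted lines mark a 2-fold difference. Most genes lie left of 0, with Efhd1 at -2.28, and Igfbp6 stands at 2.22 with all members and at -0.20 without the cells of other lineages.

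The sequence before the annotated start is shown for 3 genes that were higher in P7 members and that the gate did not use, namely Efhd1, Dpp4 and Hmcn2. Each run is the 250 bases upstream of the RefSeq start on GRCm38.p6, written 5′ to 3′ on the strand of the gene, and the capitals mark CACCC or its complement GGGTG, the core of the box that factors of the Klf family bind. The Efhd1 window is chr1:87264103-87264352 on the plus strand, the Dpp4 window chr2:62412232-62412481 on the minus strand and the Hmcn2 window chr2:31314082-31314331 on the plus strand. None of them overlaps an exon of GENCODE M21, whereas the windows of Pi16 and Sema3c do and are not shown. The window of Klf4, which overlaps no exon either, held no CACCC and is not shown. The windows of Clec3b and Mfap5 were not looked at.
Efhd1: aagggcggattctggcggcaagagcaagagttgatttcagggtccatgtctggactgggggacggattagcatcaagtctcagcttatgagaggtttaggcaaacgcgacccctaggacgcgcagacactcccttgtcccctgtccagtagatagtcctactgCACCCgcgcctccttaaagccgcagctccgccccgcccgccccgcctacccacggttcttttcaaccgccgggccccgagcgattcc
Dpp4: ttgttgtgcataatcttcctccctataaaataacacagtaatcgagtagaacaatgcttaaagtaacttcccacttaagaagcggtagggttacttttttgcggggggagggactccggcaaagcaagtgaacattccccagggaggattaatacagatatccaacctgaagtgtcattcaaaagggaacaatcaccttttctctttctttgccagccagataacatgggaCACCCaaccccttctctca
Hmcn2: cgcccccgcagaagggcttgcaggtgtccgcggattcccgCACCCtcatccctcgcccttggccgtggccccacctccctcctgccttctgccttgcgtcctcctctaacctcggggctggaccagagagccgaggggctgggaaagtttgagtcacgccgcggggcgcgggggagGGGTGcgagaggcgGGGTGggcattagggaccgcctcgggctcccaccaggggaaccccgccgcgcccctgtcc
The motif CACCC occurred 1 time in the windows of Efhd1 and Dpp4 and 3 times in that of Hmcn2. It was present in 52% of the 32851 windows of the same length in the table, on either strand. TGANTCA, the site of AP-1 factors, which reads the same on both strands, was found in the Hmcn2 window and in 6.75% of all windows. GGAATG, the site of TEAD factors, was found on the complementary strand in the Dpp4 window and in 12.6% of all windows, and neither motif overlapped a CACCC. These matches describe the letters in the windows only.

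Among the genes with the largest differences, several were near 0 in P1 members. The P7 members held 31097098 UMIs in all and the P1 members 4712379, so that UMIs of a gene are given with its CPM. Hmcn2, which encodes the matrix protein hemicentin, had 1 UMI in P1 members and 1575 UMIs in 607 P7 members (50.6 CPM, log2 ratio -7.31, interval -13.20 to -5.42), with 0.705 and 5.45 CPM in the other collagen-gated cells. Duoxa1, the maturation factor of the hydrogen peroxide-producing dual oxidases, had 10 UMIs at P1 and 1002 at P7 in members (2.12 and 32.2 CPM) and 5 and 5 outside. The oxidase gene Duox1 itself had 1 and 160 UMIs in members (0.212 and 5.15 CPM) and 0 in both libraries outside. At P7 Duoxa1 and Duox1 were thus read in members and almost nowhere else among collagen-gated cells, while at P1 both groups held few UMIs of them. Wnt10b, a Wnt ligand, had 6 and 302 UMIs (1.27 and 9.71 CPM) in members and 0 and 2 UMIs outside. Adamts8, a metalloproteinase, stood at 4.03 CPM (P1) and 24.1 CPM (P7) (5.82-fold higher at P7), and Serpinb9b, a serpin, had 1 and 241 UMIs (0.212 and 7.75 CPM). In the second ranking, described below, Pianp was at 10.4 CPM (P1) and 55.6 CPM (P7), Galnt16 at 18.0 CPM (P1) and 69.4 CPM (P7), Dtna at 5.73 CPM (P1) and 26.9 CPM (P7) and Prdm8 at 0.849 CPM (P1) and 9.55 CPM (P7), of which Pianp stood as high outside (13.2 and 59.2 CPM) and Dtna did not (4.32 and 5.87 CPM). Gm10320 was higher at P7 to the same degree outside (0.212 and 132 CPM in members, 0.529 and 124 CPM outside). The X-linked Gm15261 had 0 and 191 UMIs in members (0 and 6.14 CPM). Thbs4 and Comp, both of the thrombospondin family, also ranked high, but with 47 and 7 cells at P7 they came from few members. The remaining genes of this ranking (Esm1, Trbc2, 1700061G19Rik, Sprn and Tmem169) had no UMI at P1 and between 56 and 72 UMIs at P7 (1.80 to 2.32 CPM). Those of Esm1 came from 8 cells, 20 of its 72 UMIs from 1 cell, and 1 cell gave 30 of the 70 UMIs of Trbc2.

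At P1 the largest ratios of all members came mostly from few cells. Ren1, the gene of renin, had 62 UMIs in 6 cells at P1, 33 of them in 1 cell, and none at P7. Retnlg and Stfa1, which are neutrophil genes, had 272 of 278 and 99 of 100 UMIs in 1 cell, and BC100530, Stfa2 and Lcn2 had 235 of 256, 46 of 51 and 50 of 55. Dmkn, an epicardial marker, had 99.3% of its UMIs in the epicardial-marker cells, which it helped to choose. Mrap2, an accessory protein of melanocortin receptors, was spread more widely, with 58 UMIs in 41 cells at P1 and 4 at P7, and differed to the same extent outside (14.5 and 0.120 CPM). Sost, Gng13 and Isl1 had 77, 114 and 52 UMIs at P1 in 9, 19 and 21 cells, and Tsix, the antisense partner of Xist, had 70 UMIs at P1 and none at P7. For this reason a second ranking was made after these values had been seen, over members without cells of other lineages and genes detected in at least 10% of them in the library where the gene was higher. A gene could thus enter through the age at which it was high, and these values are a description.

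In that ranking the imprinted gene Dlk1, an inhibitor of adipogenic and other differentiation, stood at 1020.3 CPM (P1) and 49.5 CPM (P7) (20.6-fold higher at P1, log2 ratio 4.36, interval 4.28 to 4.45). Detection at full depth was 76.6% of members at P1 and 15.2% at P7, and after thinning 56.8% and 6.82%, with 1.78% and 0.386% of leukocytes. In the other collagen-gated cells Dlk1 was at 969 and 141 CPM. Of 18 imprinted growth genes, 6 were higher in P1 members and none at P7, with a median log2 ratio of 0.76, and 5 were at least 2-fold higher without the cells of other lineages. The other collagen-gated cells had 5 of 18 higher at P1 and none at P7. The growth factor Igf2 was at 31.6 CPM (P1) and 5.31 CPM (P7), the non-coding RNA H19 from the same locus at 834 CPM (P1) and 226 CPM (P7), and the zinc finger genes Peg3 and Plagl1 at 647 and 191 CPM and at 63.5 and 26.9 CPM. The cell cycle inhibitor Cdkn1c was at 884 CPM (P1) and 497 CPM (P7), below 2-fold. Plag1 and Hmga2, which encode growth regulators of early life, stood at 12.9 and 2.09 CPM and at 12.3 and 1.93 CPM. Hpgd, which breaks down prostaglandins, was at 60.7 CPM (P1) and 8.01 CPM (P7), and Smad6, an inhibitor of BMP signalling, at 39.3 CPM (P1) and 6.53 CPM (P7). Wfdc18 stood at 56.4 CPM (P1) and 5.88 CPM (P7) and, outside, at 14.3 and 2.76 CPM. Igf2, H19, Dlk1, Peg3, Plag1, Hmga2, Hpgd, Smad6 and Wfdc18 were also at least 2-fold higher at P1 in the other collagen-gated cells.

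Genes that respond to glucocorticoids were higher at P1 in part. Of 20 tested, 7 were at least 2-fold higher at P1 and none at P7, with a median of 0.68 on the log2 scale, and without the cells of other lineages the count was 8. In the other collagen-gated cells 7 of 20 were higher at P1 and none at P7 as well. Zbtb16, a transcription factor, was at 16.6 CPM (P1) and 0.514 CPM (P7), and the co-chaperone gene Fkbp5 at 24.2 CPM (P1) and 6.56 CPM (P7). The metallothioneins Mt1 and Mt2 were at 100.2 and 20.5 CPM and at 20.8 and 3.57 CPM, and at 54.2 and 18.6 CPM and 8.03 and 2.65 CPM without those cells. Per1 and Tsc22d3, also on the list, were at 26.9 and 20.6 CPM and at 94.9 and 84.7 CPM. The receptor gene Nr3c1 itself was at 119 CPM (P1) and 182 CPM (P7).

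Most of the growth factor genes that differed belong to the insulin-like growth factor family. Of 30 growth factor and receptor genes, 7 were higher in P1 members (Igf2, Igfbp2, Igfbp3, Igfbp5, Igfbp6, Fgf10 and Pdgfc) and none at P7, with a median log2 ratio of 0.06, and 5 were higher at P1 without the cells of other lineages. Outside, 4 of 30 were higher at P1 and 1 at P7. Igfbp3 was at 179 CPM (P1) and 29.6 CPM (P7) (6.06-fold higher at P1) and at 138 and 29.5 CPM without those cells. Igfbp5 was at 958 CPM (P1) and 88.7 CPM (P7) in all members, but at 122 and 53.7 CPM without them. Igfbp2 was at 37.1 CPM (P1) and 1.22 CPM (P7) and at 0.287 and 1.10 CPM without them, so that its difference was seen with the cells of other lineages only. Igf1 stood at 85.9 and 62.2 CPM, its receptor Igf1r at 121 and 106 CPM and Igfbp4 at 678 and 833 CPM in members, none of them 2-fold different.

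Collagen and elastic fibre genes were called at shares near the 9.51% of all genes. Of 9 fibrillar collagens tested, 1 was higher at P1 (2 without the cells of other lineages) and none at P7. The 1 was Col11a1, at 37.8 CPM (P1) and 12.7 CPM (P7). Col1a1, used by the gate, was at 5911 and 5964 CPM, and Col1a2, which was not, at 4860.0 and 5061 CPM. Of 21 elastic fibre genes, 2 were higher at P1 and 1 at P7, and none and 1 without those cells. Elastin (Eln) was at 2835 CPM (P1) and 1173 CPM (P7) in all members and at 2065 and 1179 CPM without the cells of other lineages, under 2-fold, and Efemp1 turned from a log2 ratio of 1.27 to -0.86. Emilin2 was 2.14-fold higher at P7. Fibrillin 1 (Fbn1) was at 658 CPM (P1) and 1123 CPM (P7). Matricellular genes were higher at P7 where they differed, 7 of 16 in all members and 5 without the cells of other lineages, and none was higher at P1. Outside the members, 5 of 17 were higher at P7 and none at P1. Sparcl1 was at 827 CPM (P1) and 2263 CPM (P7), Nov, a secreted CCN protein, at 426 CPM (P1) and 910.2 CPM (P7), and the tenascin gene Tnxb at 194 CPM (P1) and 410.4 CPM (P7). Periostin (Postn) was at 2437 CPM (P1) and 3079.7 CPM (P7) and fibronectin (Fn1) at 873 and 826 CPM. The proteoglycan genes decorin (Dcn) and lumican (Lum) were at 7436 and 13039 CPM and at 1432 and 2784 CPM.

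Ligands of the BMP and activin families were among the genes higher at P7. Bmp6 stood at 22.9 CPM (P1) and 74.8 CPM (P7), Bmp4 at 41.0 CPM (P1) and 86.1 CPM (P7), Bmp2 at 8.91 CPM (P1) and 19.9 CPM (P7) and Inhba, which encodes a subunit of activin, at 42.9 CPM (P1) and 128 CPM (P7). In the other collagen-gated cells Bmp6 was at 31.3 and 28.8 CPM and Inhba at 45.6 and 60.6 CPM. Of 21 genes of the list 4 were higher at each age. Bmp7 and Fst, which were higher at P1, stood at 7.64 and 0.0643 CPM and at 8.28 and 2.57 CPM. Without the cells of other lineages 1 was higher at P1 and 3 at P7, and outside none of 22 was called. Of 16 Wnt ligands and inhibitors tested, 5 were higher at P1 and none at P7, against 6.64% and 2.86% of all genes. Without the cells of other lineages the counts were 3 and none, against 3.58% and 2.89%. Outside, 4 of 18 were higher at P1 and 1 at P7. The ligand gene Wnt10b, given above, was not on this list and was higher at P7 in members (log2 ratio -2.82, interval -4.39 to -1.79). Wnt2 was at 9.12 CPM (P1) and 2.51 CPM (P7) and the agonist Rspo3 at 8.06 CPM (P1) and 0.450 CPM (P7), while Rspo1 was at 52.4 CPM (P1) and 7.24 CPM (P7) and at 1.43 and 1.84 CPM without the cells of other lineages. Ntn4, a netrin, was at 3.82 CPM (P1) and 14.1 CPM (P7).

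Complement and chemokine genes were higher at P1 for 10 of 17 tested and at P7 for 2 in all members, and for 7 and 2 without the cells of other lineages. Outside, 4 of 17 were higher at P1 and 5 at P7. The chemokines Cxcl1 and Ccl2 were at 208 and 62.7 CPM and at 144 and 39.6 CPM. Il33, an alarmin, was at 25.7 CPM (P1) and 5.98 CPM (P7). C3 was at 197 CPM (P1) and 11.4 CPM (P7) in all members and at 5.73 and 0.177 CPM without the cells of other lineages, which held nearly all of it. Digestion lasted 20 min at P1 and 45 min at P7, and its part in these genes was not tested. Of 39 immediate early and heat shock genes, 2 were higher at P1 and 1 at P7, and 1 at each age without the cells of other lineages, beside 6.64% and 2.86% of all genes for all members.

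The HIF pathway was examined because the study is concerned with hypoxia. Of 38 genes tested, 4 were at least 2-fold higher in P1 members and 1 in P7 members, 5 of 38 in either direction against 9.51% of all genes, and the median log2 ratio was -0.04. Members without cells of other lineages had 3 genes higher at P1 and 1 at P7, and the other collagen-gated cells 3 and 1 of 39. Hif3a, an inhibitory subunit, was at 8.06 CPM (P1) and 1.09 CPM (P7), and Egln3, a prolyl hydroxylase, at 22.5 CPM (P1) and 8.59 CPM (P7). Both were higher at P1 in the other collagen-gated cells too, by log2 ratios of 2.03 and 1.12. Igfbp3 and Slc2a3 were the other 2, and without the cells of other lineages Slc2a3, a glucose transporter, was at 1.43 and 1.38 CPM. The gene higher at P7 was Ackr3, given above. Hif1a stood at 52.2 CPM (P1) and 49.8 CPM (P7), Epas1 at 20.8 CPM (P1) and 27.8 CPM (P7) and Egln1, which encodes the main oxygen-sensing hydroxylase, at 20.2 CPM (P1) and 23.02 CPM (P7) (interval of the log2 ratio -0.52 to 0.12). Vegfa was at 32.0 CPM (P1) and 35.2 CPM (P7) (interval -0.39 to 0.11) and Pdk3 at 25.04 CPM (P1) and 18.8 CPM (P7) (interval 0.11 to 0.70). For Egln1 and Vegfa the interval included 0, and for all 3 it lay within 2-fold in either direction.

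No cell cycle gene of 35 was 2-fold different between the ages in members, with a median log2 ratio of 0.15, and 2 (Cenpf and Ube2c) were higher at P7 without the cells of other lineages. Mki67 was at 45.0 CPM (P1) and 42.8 CPM (P7). Of 15 cardiac transcription factor genes tested, 5 were higher at P1 and none at P7, and 3 without the cells of other lineages. Wt1 was at 45.2 CPM (P1) and 3.41 CPM (P7) and, without those cells, at 19.8 and 1.66 CPM. Tbx5 and Tbx3 were at 4.24 and 1.22 CPM and at 3.82 and 1.54 CPM. Of 6 Hox genes with enough UMIs, 4 were higher at P1 and 1 at P7, and without the cells of other lineages 2 and 1 of 4. Hoxa5 in P1 members was at 17.8 CPM with and 2.87 CPM without the cells of other lineages, and Hoxb4 at 8.49 and 6.59 CPM. Lung epithelial and lung stromal markers, a list that holds Hoxa5 and was not used to leave out cells, were higher at P1 for 5 of 7 tested and at P7 for 1, and for 3 and 1 of 5 without the cells of other lineages. They summed to 55.6 and 45.8 CPM, with Hoxa5 the most abundant at P1 and Scn7a at P7, and 3 of 12 were at 0 at P1 and 5 at P7. Sftpc, which encodes a surfactant protein of lung epithelium, had 24 UMIs in 24 P1 members and none at P7, and was at 9.78 CPM in the other collagen-gated cells at P1. The part of lung RNA or cells in the Hox values was not tested.

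**Figure D5:**
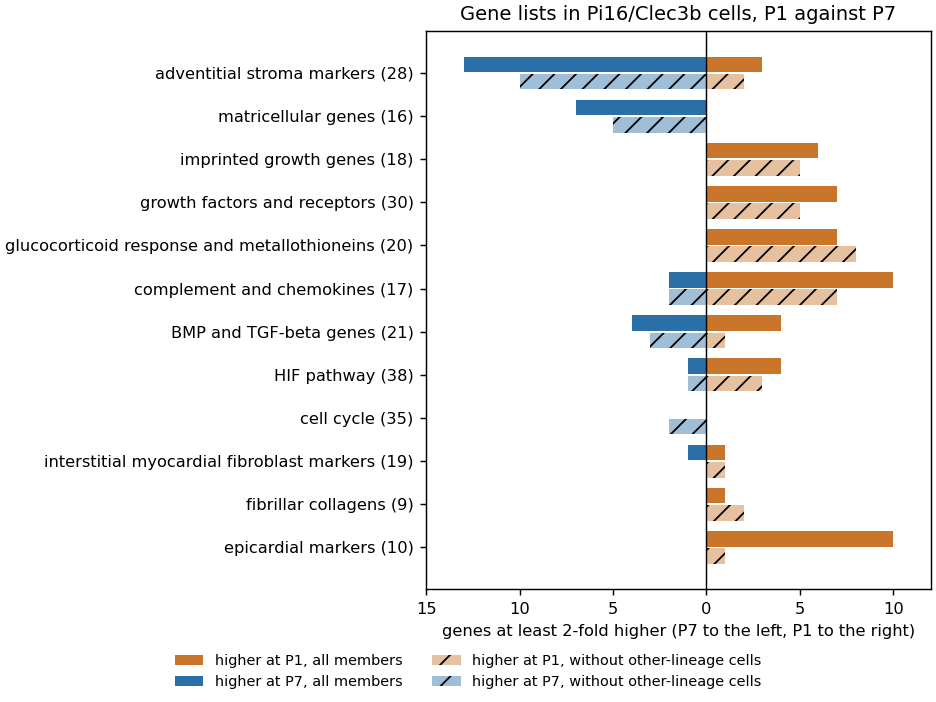
Number of genes of 12 lists (number tested in brackets) that were at least 2-fold higher in P7 members (blue, to the left) or P1 members (orange, to the right); solid bars are all members and hatched bars members without markers of another lineage. Adventitial and matricellular genes lie to the left and imprinted, growth factor and glucocorticoid genes to the right in both, and all 10 epicardial markers lie to the right for all members and 1 without the cells of other lineages.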

How the data were processed

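Single cells of P1 and P7 hearts, 1 library per age, were read as tables of UMI counts per gene and cell, which the authors deposited after alignment and counting with Cell Ranger 3.1.0 to mm10 (per the submitters' processing notes). The counts are raw. Of 31053 gene IDs, 31011 had a position in GENCODE M21. Cells with 200 to 8000 genes and at most 20% mitochondrial UMIs were kept and no doublet caller was run. UMIs were summed over the members of each library and given as CPM. Ratios took 0.5 counts added to each sum, genes with at least 20 UMIs over both libraries were compared, and a difference was called at 2-fold or more with a 95% interval that excluded 0. Intervals were exact (Poisson for CPM, Clopper-Pearson for shares, conditional binomial for ratios). Cells were thinned to 3000 UMIs to compare detection.

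Members and gene lists were chosen with earlier results of these data known. Genes named were the gate genes, the 12 largest ratios of P1 to P7 in each direction and 50 or more UMIs in the library where the gene was higher (gate, sex, erythroid and mitochondrial genes left out), the 20 highest and 8 lowest of members against other collagen-gated cells, and genes of the lists. A ranking added after the data were seen took the 20 largest in each direction among genes detected in at least 10% of members of the library where the gene was higher, without cells of other lineages. Tsix passed the first rule although it is antisense to Xist. Of the list entries, 3 symbols matched more than 1 row and were left out. Promoter sequences came from RefSeq on GRCm38.p6. The calculations were tested on simulated data. Python 3.11.15, numpy 2.4.6, scipy 1.17.1, pandas 2.3.3 and matplotlib 3.10.9 were used. Alternatives changed the gate, the depth, the counts added and the cells left out.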

Additional observations from a re-analysis of the deposited data

Results flagged for a closer look

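In 18 genes the ratio of P1 to P7 ran one way in members and the other way in the remaining collagen-gated cells, each at least 2-fold. For comparison, 13245 genes were tested in members and 13870 in the remaining cells, and the 18 were picked for running opposite ways. The difference between the 2 groups of cells was not tested, because each age had 1 library. The first 6 genes include the complement proteases C1s1 and C1ra. They also include Rbp4, a set C gene of the gate, whose values in both groups are shaped by the choice of cells. Their log2 ratios (P1 over P7) in members were 1.74 for C1s1, 1.68 for C1ra, 1.63 for Gbp2, 1.42 for Rbp4, 1.54 for Tspan15 and 1.68 for Tinagl1. In the other collagen-gated cells they were -1.70 for C1s1, -1.12 for C1ra, -1.08 for Gbp2, -1.43 for Rbp4, -1.20 for Tspan15 and -1.39 for Tinagl1. Without cells of other lineages the values in members were 0.42 for C1s1, 0.47 for C1ra, -0.68 for Gbp2, 0.03 for Rbp4, -1.32 for Tspan15 and 0.91 for Tinagl1.

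Another 6 genes are known from leukocytes, vessel walls or glia. In members the log2 ratios were 1.51 for Lyz2, 1.45 for Fcer1g, 1.57 for Acp5, 1.32 for Esam, 1.22 for Rgs4 and 1.58 for Gfra3, and in the other cells -1.31 for Lyz2, -1.36 for Fcer1g, -1.76 for Acp5, -1.42 for Esam, -1.36 for Rgs4 and -1.48 for Gfra3. Without cells of other lineages the values were 0.13 for Lyz2, 0.49 for Fcer1g, -0.14 for Acp5, -0.12 for Esam, 0.57 for Rgs4 and 2.28 for Gfra3.

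Cldn11, Cda and Wipf3 were higher at P7 in members, at -1.54 for Cldn11, -1.33 for Cda and -1.18 for Wipf3, and higher at P1 outside, at 1.29 for Cldn11, 1.70 for Cda and 1.09 for Wipf3. Without cells of other lineages they stood at -1.18 for Cldn11, -1.62 for Cda and -0.97 for Wipf3. The haemoglobin genes had log2 ratios of -5.62 for Hbb-bt, -4.83 for Hbb-bs and -4.05 for Hba-a1 in members and 3.35 for Hbb-bt, 3.14 for Hbb-bs and 2.99 for Hba-a1 outside, and -2.14 for Hbb-bt, -2.17 for Hbb-bs and -1.12 for Hba-a1 without cells of other lineages, and 2 cells held 83.4% of the Hbb-bs UMIs in P7 members.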

How the results depend on the processing

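Of 26 alternatives tried, 3 were chosen after seeing the data. The share of members was higher at P7 than at P1 under each one that changed which cells were kept, gated or counted as members; the others left the share as it was. With 1 of Pi16, Clec3b, Mfap5 and Sema3c left out of the gate in turn, the shares of collagen-gated cells were 10.4, 7.32, 5.81 and 9.04% at P1 and 50.9, 46.6, 44.1 and 50.6% at P7. With at least 3 of the 4 genes they were 11.0 and 55.7%, and with all 4 they were 4.63 and 41.2%, with 471 genes higher in P1 members in place of 880. A collagen gate of 20 or 5 UMIs gave 63.3 or 58.3% at P7, and leaving out members above the 95th percentile of UMIs 58.0%. Thinning before the gate gave 16.9% at P1, with 399 genes higher at P1 in members, 353 higher at P1 and 226 higher at P7 in the other cells, and 79 higher and 74 lower in members in both libraries. Thinning after the gate gave 465, 91 and 73 for the first and the last pair of these counts, and fewer UMIs leave fewer genes to compare. Leaving out members with 2 markers of another cell type kept 2.05 and 11.7% of collagen-gated cells, with 256 genes higher at P1 and 313 at P7, so that the excess at P1 turned into one at P7, and 89 higher and 105 lower in members. Leaving out the epicardial-marker cells gave 575 genes higher at P1. Leaving out all cells of other lineages gave shares of 11.1 and 56.2% and 460 genes. With 5 counts added in place of 0.5, 181 genes were higher in P7 members and 137 lower in members in both libraries. With a comparison group holding at most 1 marker of each other cell type, 167 genes were higher at P7 in that group and 59 lower in members. Of 170 genes named in the report and compared, 119 were called, and 103 of these kept their direction under every alternative in which they had a value. Genes on X and Y, for example, had none where these chromosomes were left out. The other 16 turned as follows (log2 ratio, P1 over P7). Without members with 2 markers of another type, Igfbp6 was at -0.081, Eln at -0.027, Anxa8 at -1.32, Efemp1 at -1.31, Esm1 at 0.88, Fmod at -0.68, Rbp4 at -1.72, Slc2a3 at -0.26 and Wisp1 at -2.53. Without epicardial-marker cells, Igfbp6 was at -0.28, Efemp1 at -0.89, Gng13 at -1.05 and Rspo1 at -0.74. Without cells of other lineages, Igfbp6 was at -0.20, Efemp1 at -0.86, Gng13 at -0.68, Igfbp2 at -1.37 and Rspo1 at -0.24. With all 4 gate genes, Efemp1 was at -0.54 and Tbx3 at -0.094. Myl2 was at -0.37, -0.28 and -0.20 with Clec3b, Mfap5 or Sema3c left out of the gate, Wif1 at 0.26 without Clec3b and Comp at 0.43 without Sema3c. The interval of the turned value excluded 0 for Efemp1, and for Igfbp6 without epicardial-marker cells and without cells of other lineages. All other turned values had intervals that included 0. Those of Anxa8, Esm1, Slc2a3, Wisp1, Gng13 and Comp had no lower limit, so that their values rest on the counts added. Why these 16 genes turned was not tested. No paired analysis was possible because each age had 1 library and the labels carry no replicate numbers.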
